A study of Mus musculus with 27 samples.

Results

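Livers of male C57BL/6 mice under diet restriction were set against livers of mice on the AIN-93 purified control diet, with n = 3 mice per diet and 1 Affymetrix Mouse 430 2.0 array per mouse. The genes described here are those with a detected signal on either of these diets, meaning a probe whose mean exceeded log2(100), called the detection level, under diet restriction or on AIN-93. They number 6155 of the 6478 genes detected on any of the study's 9 diets. Restricted mice received natural-ingredient lab chow at 75% of the amount that freely fed mice ate, and control mice ate the AIN-93M purified diet freely. All mice were males of this 1 strain, labelled 10 weeks old and kept on their diet for 3 weeks, and their livers were taken in the morning without a fast. The chow holds more protein and less carbohydrate than the purified diet, so the amount and the kind of food changed together, and in this comparison they cannot be told apart. Values from 3 mice that ate the same chow freely (lab chow) therefore stand beside the main ones. The hour at which the restricted ration was given is not stated in the sources used here.

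A liver short of food switches from storing to releasing fuel. Insulin falls and glucagon and glucocorticoids rise, which favors the transcription factors FOXO1, the glucocorticoid receptor and PPARα over SREBP1c and ChREBP, and with them gluconeogenesis and fatty acid oxidation over lipid synthesis. Feeding times also set the phase of the liver clock, in which CLOCK and BMAL1 (Arntl) drive the Per, Cry and Rev-erb repressors through E-boxes. In male rodents, pulses of growth hormone act through the growth hormone receptor and STAT5b to keep male-biased liver genes on and female-biased genes off.

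Over all 6478 genes, 875 were higher under diet restriction than on AIN-93 (13.5%) and 1039 lower (16.0%), by limma with p adjusted over 8 diets at 0.05. Of the 6155 genes detected on these diets, 872 were higher, 981 lower and 4302 not called, and the arrays of the diets did not overlap for 3002 of them (48.8%). A gene above the detection level on 1 diet alone had to differ to be counted, and of these 155 of 300 were higher and 244 of 395 lower. Of the 5444 genes above it on both, 717 were higher and 736 lower. The median called gene differed 1.69-fold in either direction. Differences of at least 4-fold were found for 94 higher and 100 lower genes, and of at least 16-fold for 25 and 15. Array medians over kept probes lay between 8.25 and 8.34 on the log2 scale in the 9 arrays of the diets named here, and 20.1% to 20.9% of an array's probes exceeded the detection level. Over the genes described, restricted livers differed from AIN-93 livers by a root mean square of 0.82 to 0.98 on the log2 scale and from each other by 0.29 to 0.46, while AIN-93 livers differed from each other by 0.34 to 0.44. Lab chow against AIN-93 gave 131 higher (2.02%) and 142 lower genes (2.19%), and diet restriction against lab chow, with p adjusted on its own, 1242 (19.2%) and 1142 (17.6%). These comparisons share arrays, so their values are set side by side only.

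**Figure D1:**
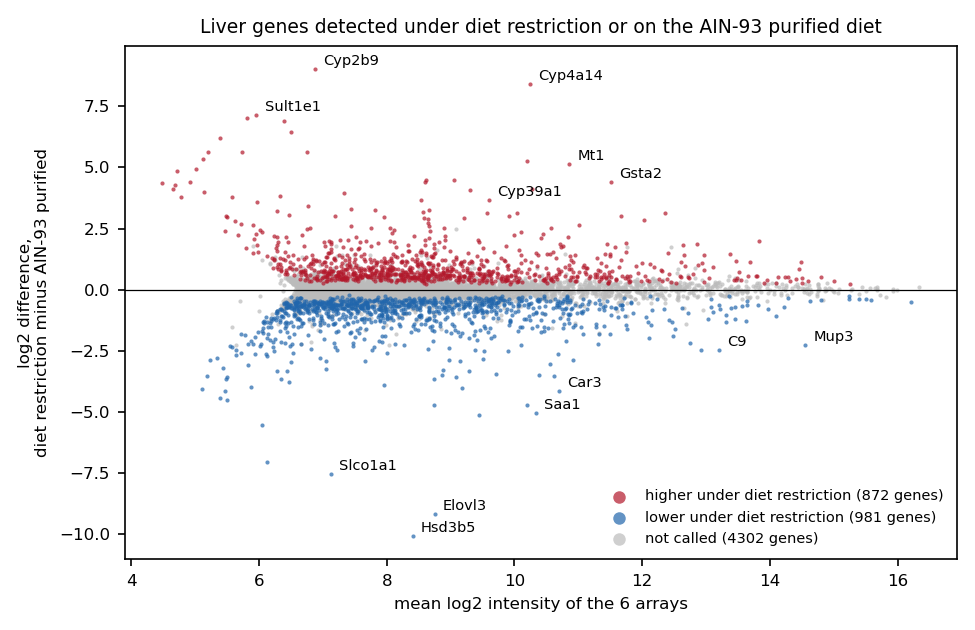
Log2 difference of diet restriction minus AIN-93 purified against the mean log2 intensity of the 6 arrays, 1 point per gene, with 872 called higher in red, 981 called lower in blue and 4302 not called in grey. The largest differences lie at low and middle intensities, with Cyp2b9 at the top and Hsd3b5 at the bottom.

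Levels are log2 intensities, and differences are percent of AIN-93 with a 95% confidence interval from the moderated fit. Where all 3 arrays of a diet lay below the detection level, only a bound is given, the fold between the other diet's mean and that level, and the p beside it tests the fitted difference. Signals near the arrays' shared lowest value of 2.29 show little of the spread between mice, so p-values of such genes may be too small. Where leaving out 1 array or another setting ended a call, or moved a printed percent by over 1.5 times, it is named with the value found. Bounds were recomputed for arrays left out only, and list counts of 3 or more that moved as much are given for arrays left out and for no filter. The settings were no filter on low signal, which takes in dim probes too, the brightest probe of a gene, the 6 arrays alone, arrays centred on their medians, array weights and a robust prior. Probes of near-identical family members (Cyp2b, Cyp4a, Mup, Gsta, Saa, Mt) can take up each other's RNA, and values within these families may be shared.

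The genes are described below by lists of related function, and the counts of each list are read beside those over all genes described, 872 higher and 981 lower of 6155. Among genes above the detection level on both diets, 14 of 26 xenobiotic P450 genes were higher, as were 10 of 22 genes of gluconeogenesis and glycogen and 21 of 52 of amino acid catabolism. In the other direction, 3 of 3 major urinary proteins were lower, as were 8 of 12 male-biased genes, 13 of 23 of fatty acid synthesis and 13 of 24 of complement.

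**Figure D2:**
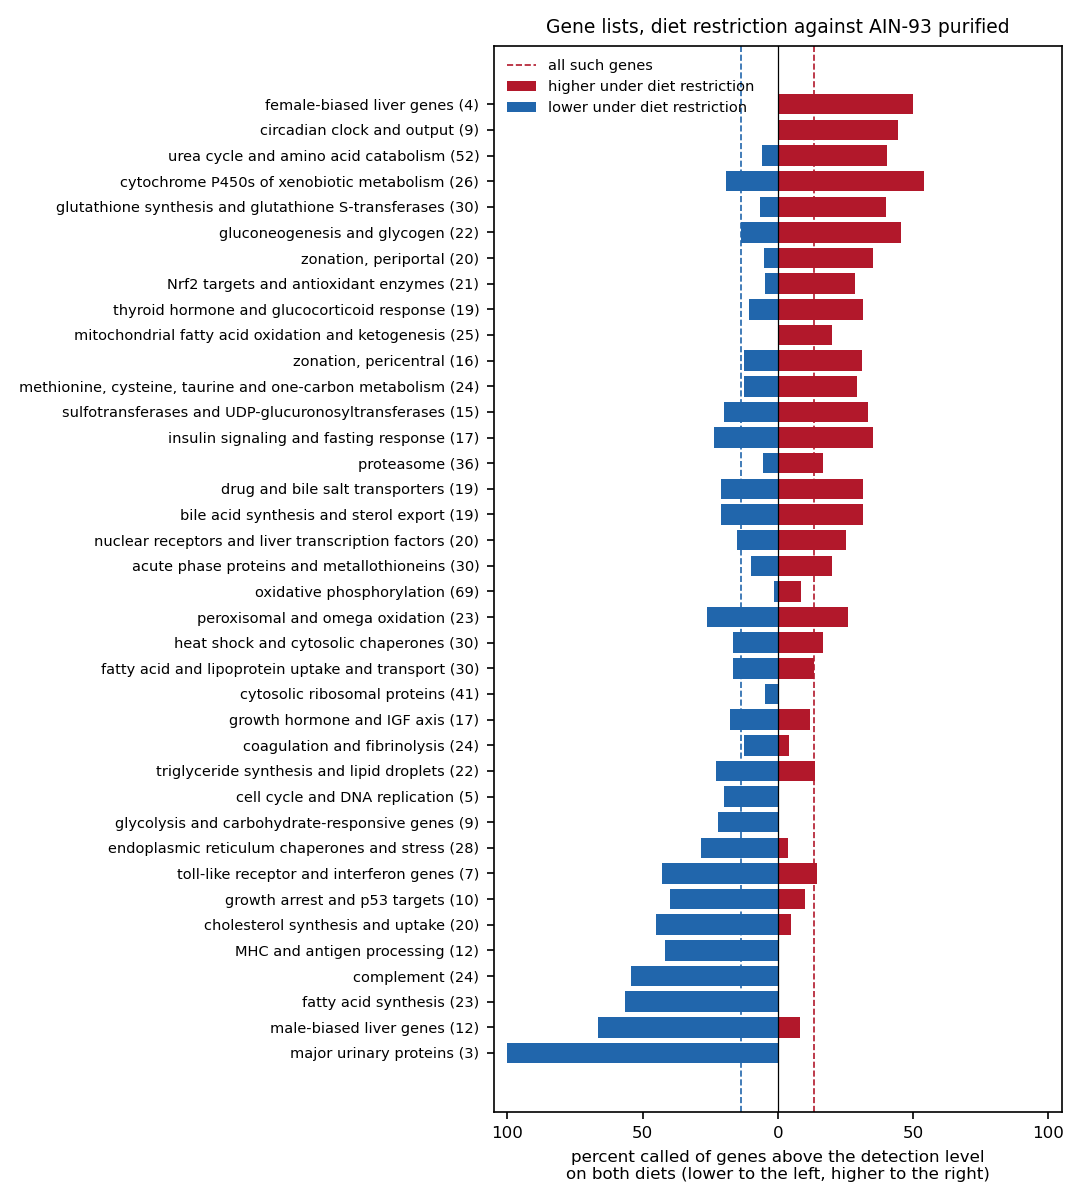
Percent of each list's genes above the detection level on both diets called higher under diet restriction (red, to the right) or lower (blue, to the left), with the number of these genes in brackets, the lists in order of the net share, and dashed lines at the shares over all 5444 such genes. Of 26 xenobiotic P450 genes 14 were higher, and of 12 male-biased genes 8 were lower.

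Genes that differ between male and female liver gave some of the largest differences. Of 18 male-biased genes detected, 14 were lower and 1 was higher, with 1 higher and 8 lower among the 12 above the detection level on both diets, and their median was 26.2% of AIN-93, beside 99.2% over all genes described. Of 21 female-biased genes, 18 were higher and 0 lower, but 17 of the 21 passed the detection level on 1 diet only. Among the 4 above it on both diets, 2 were higher and 0 lower, with a median of 379% of AIN-93. Hsd3b5, a steroid dehydrogenase of male liver, had log2 intensities of 3.33, 3.35 and 3.45 under diet restriction, against 13.62, 13.38 and 13.29 on AIN-93. Elovl3, an elongase of very long fatty acids, had 6.11, 3.82 and 2.58 under diet restriction, against 13.23, 13.14 and 13.63 on AIN-93. All restricted livers lay below the detection level for both genes, which made Hsd3b5 lower by at least 110.4-fold (adjusted p = 1.5e-15) and Elovl3 lower by at least 103-fold (adjusted p = 8.9e-11). Cyp4a12a, the arachidonic acid hydroxylase of male liver and kidney, stood at 7.40, 5.68 and 7.59 under diet restriction, against 11.49, 12.29 and 12.21 on AIN-93, or 2.91% of AIN-93 (95% confidence interval 1.44 to 5.85, adjusted p = 3.0e-07). Smaller falls were found for the oxysterol hydroxylase Cyp7b1 to 32.6% (adjusted p = 1.5e-04), for Cyp2d9 to 48.2% (adjusted p = 0.0011) and for Ugt2b38 (lower by at least 2.34-fold, adjusted p = 3.4e-04), while Hsd11b1, which regenerates active glucocorticoid, was higher at 133% (adjusted p = 0.016). Slco1a1, the male-biased organic anion carrier, read 3.86, 3.31 and 2.92 under diet restriction, against 11.20, 10.73 and 10.73 on AIN-93, and was below the detection level in each restricted liver. Cyp2b9, a P450 of female liver, read 11.41, 11.24 and 11.53 under diet restriction, against 2.35, 2.37 and 2.37 on AIN-93, and the estrogen sulfotransferase Sult1e1 read 9.31, 9.27 and 10.02 under diet restriction, against 2.38, 2.38 and 2.38 on AIN-93. For both genes no AIN-93 liver reached the detection level. The related Cyp2b13 read 7.38, 7.22 and 6.81 under diet restriction, against 2.29, 2.29 and 2.29 on AIN-93, with every AIN-93 array at the lowest value, and was higher by at least 1.41-fold (adjusted p = 3.7e-19). Cux2, a repressor that marks female liver, read 8.58, 7.22 and 8.25 under diet restriction, against 2.29, 2.29 and 2.54 on AIN-93 and was higher by at least 2.59-fold (adjusted p = 6.3e-15). The flavin monooxygenase Fmo2 was higher by at least 3.77-fold (adjusted p = 1.1e-18), the sulfotransferase Sult3a1 higher by at least 3.62-fold (adjusted p = 2.7e-11) and the magnesium carrier gene Nipal1 higher by at least 2.23-fold (adjusted p = 5.9e-07). The organic anion carrier Slco1a4 was detected on both diets, at 11.61, 11.08 and 11.19 under diet restriction, against 7.31, 7.08 and 6.07 on AIN-93. On lab chow, Hsd3b5 was at 75.0% (adjusted p = 0.46) and Elovl3 at 111% (adjusted p = 0.9) of AIN-93, neither called. Slco1a4 was at 325% (adjusted p = 0.067) on lab chow, also not called. Calls were lost for Hsd11b1 without diet restriction replicate 1 (129.7%). The estimate moved for Cyp4a12a to 4.42% without diet restriction replicate 2.

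**Figure D3:**
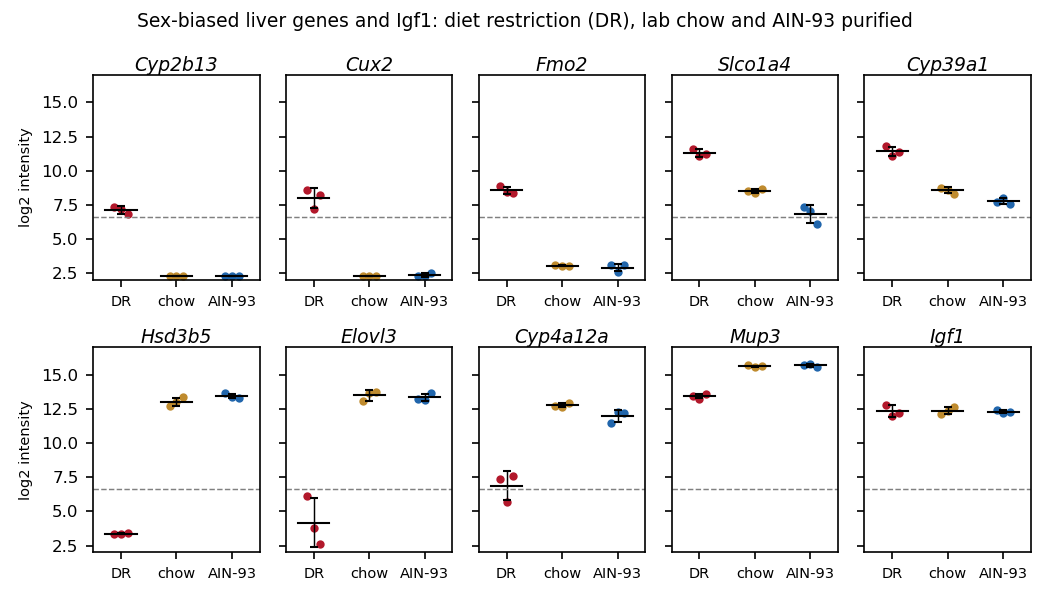
Log2 intensity of 9 sex-biased liver genes and Igf1 in each mouse under diet restriction (DR), on lab chow and on AIN-93 purified, with bars for the mean and whiskers for the standard deviation of 3 mice and a dashed line at the detection level. In every panel but Igf1 the 3 restricted mice lie apart from the other 6, above them for the genes of the first row and below them for Hsd3b5, Elovl3, Cyp4a12a and Mup3.

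In the growth hormone and IGF axis the receptor was lower and Igf1 was not called. Ghr, the growth hormone receptor, read 10.44, 10.22 and 10.22 under diet restriction, against 11.41, 11.12 and 11.14 on AIN-93, and fell to 52.4% of AIN-93 (95% confidence interval 44.5 to 61.7, adjusted p = 8.9e-06), with all 3 of its probes lower. Igf1, the main growth factor that the receptor drives, read 12.79, 11.94 and 12.19 under diet restriction, against 12.40, 12.23 and 12.27 on AIN-93, so that its arrays overlapped and its level was 101% (95% confidence interval 76.9 to 132, adjusted p = 0.98). Its acid-labile carrier subunit Igfals was at 53.7% (adjusted p = 0.13) and the signal transducer Stat5b at 82.8% (adjusted p = 0.36), neither called. The feedback inhibitor Cish stood at 6.85, 5.08 and 4.74 under diet restriction, against 8.78, 5.78 and 8.73 on AIN-93, an overlap that left its 21.7% short of the threshold (adjusted p = 0.4). Of the IGF binding proteins, Igfbp2 rose to 218% (adjusted p = 0.0032) and Igfbp1, a FOXO1 target, to 882% (adjusted p = 0.011), with 14.79, 13.49 and 13.48 under diet restriction, against 11.96, 8.52 and 11.86 on AIN-93, where AIN-93 replicate 2 lay far below the other AIN-93 livers. Over the 20 members detected, 2 were higher and 4 lower, a share like that over all genes described. Besides Ghr, the lower ones were the hepatic transcription factors Foxa1 at 27.2% (adjusted p = 0.021) and Onecut1 (lower by at least 1.85-fold, adjusted p = 0.025), and the epidermal growth factor receptor Egfr at 35.8% (adjusted p = 0.041). The major urinary proteins, pheromone carriers of male urine that growth hormone induces, fell in all 3 genes with a probe annotated to that gene alone. These probes may still take up RNA of other family members. Mup3 read 13.46, 13.25 and 13.58 under diet restriction, against 15.68, 15.80 and 15.55 on AIN-93 (21.1%, adjusted p = 6.9e-11), Mup10 was 10.3% (adjusted p = 2.4e-06) and Mup5 33.1% (adjusted p = 7.7e-07). Axis genes called lower numbered 1 without diet restriction replicate 2 or AIN-93 replicate 1 or 3 or with no filter and 2 without diet restriction replicate 3. The threshold was missed by Igfbp1 without AIN-93 replicate 2 (403%), Foxa1 without diet restriction replicate 2 or AIN-93 replicate 1 or 3 or with no filter (27.2% to 32.4%) and Onecut1 without diet restriction replicate 2 or 3 or AIN-93 replicate 1 or 3 or with no filter. The call was also lost for Egfr without any 1 of the 6 arrays or by the brightest probe or with no filter (33.3% to 55.7%). The value moved for Igfbp1 to 517% with array weights and 1326% without AIN-93 replicate 1 and Mup3 to 13.7% with no filter.

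Among genes of the circadian clock, the activators Arntl and Clock were lower and several repressors and outputs higher. Of 19 detected, 11 were higher and 2 lower, with 4 higher and 0 lower among the 9 above the detection level on both diets. Arntl read 4.39, 2.98 and 2.89 under diet restriction, against 6.73, 6.45 and 7.66 on AIN-93 (lower by at least 1.23-fold, adjusted p = 1.9e-05). Without AIN-93 replicate 3 its AIN-93 mean lay below the detection level, so no bound remained. Clock read 6.76, 5.29 and 5.48 under diet restriction, against 7.68, 7.67 and 7.75 on AIN-93, or 27.6% (adjusted p = 1.5e-05), with all 3 of its probes lower. The repressor Per1 read 7.86, 7.61 and 7.84 under diet restriction, against 4.07, 4.45 and 4.02 on AIN-93 (higher by at least 2.18-fold, adjusted p = 2.7e-06). Tef, a leucine zipper output factor that binds D-boxes, read 10.02, 10.24 and 10.25 under diet restriction, against 8.05, 7.86 and 7.00 on AIN-93, or 581% (95% confidence interval 333 to 1015, adjusted p = 1.4e-04). The kinase Wee1, through which the clock gates mitosis, read 7.63, 8.10 and 7.94 under diet restriction, against 4.56, 4.79 and 4.64 on AIN-93 (higher by at least 2.37-fold, adjusted p = 8.3e-09). For each of these 3 genes the lowest restricted liver lay above the highest AIN-93 and lab chow liver. The deubiquitinase Usp2 was higher by at least 7.54-fold (adjusted p = 5.7e-08) and the repressor Nr1d2 was at 366% (adjusted p = 0.018). Per2 was called (adjusted p = 0.012) with restricted livers at the detection level, at 6.79, 6.67 and 6.48 under diet restriction, against 4.64, 5.12 and 5.06 on AIN-93. Dbp and the deadenylase Noct, liver outputs with a wide daily swing, varied among control mice. Dbp read 9.59, 10.68 and 10.81 under diet restriction, against 8.40, 7.15 and 4.57 on AIN-93, and Noct read 11.67, 10.07 and 10.67 under diet restriction, against 3.58, 8.51 and 7.16 on AIN-93. Both were called, Dbp at 1259% (adjusted p = 0.033) and Noct at 2091% (adjusted p = 0.0093). The repressor Nfil3 was at 31.6% (adjusted p = 0.068) and not called. Lab chow gave no call in this list against AIN-93, and against lab chow 13 members were higher and 3 lower under diet restriction. Livers were taken in the morning by the methods, and the mice's meal times were not recorded in the sources used here, so the part of the hour of feeding was not tested. No call was made for Dbp without diet restriction replicate 2 or 3 or AIN-93 replicate 2 or 3 or with no filter (601% to 1469%), Noct without AIN-93 replicate 1 (784%) and Nr1d2 without diet restriction replicate 3 or AIN-93 replicate 2 or 3 or with no filter (192% to 364%). The percent moved for Dbp to 3257% with array weights and 2262% without AIN-93 replicate 1, Noct to 1362% with array weights and 4317% without AIN-93 replicate 2 and Tef to 212% with no filter.

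The Per1 promoter is shown because it holds an E-box and a D-box, which are among the motifs through which the clock is known to act. In RefSeq windows of 250 bases before to 50 after a transcription start (GRCm38.p6), searched on both strands, the E-box CACGTG was present in 7.15% and the D-box TTATGNAA in 3.38% of 32851 windows. Counted by gene, over all windows a gene has, the shares were 8.09% and 3.99%. Among the 15 clock members with a window, 4 held an E-box (Per1 and Tef among them) and 2 a D-box (Noct and Per1). Per1 was the only gene among those named that held both in 1 window, at chr11:69098699-69098948 on the plus strand, with the E-box followed by the D-box in capitals and only the bases before the start shown. A match describes letters and does not show binding.
Per1: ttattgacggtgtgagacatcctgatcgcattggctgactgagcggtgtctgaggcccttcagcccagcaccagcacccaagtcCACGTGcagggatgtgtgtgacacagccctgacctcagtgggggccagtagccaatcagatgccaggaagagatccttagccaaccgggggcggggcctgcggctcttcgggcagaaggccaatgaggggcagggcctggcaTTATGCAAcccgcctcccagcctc

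**Figure D4:**
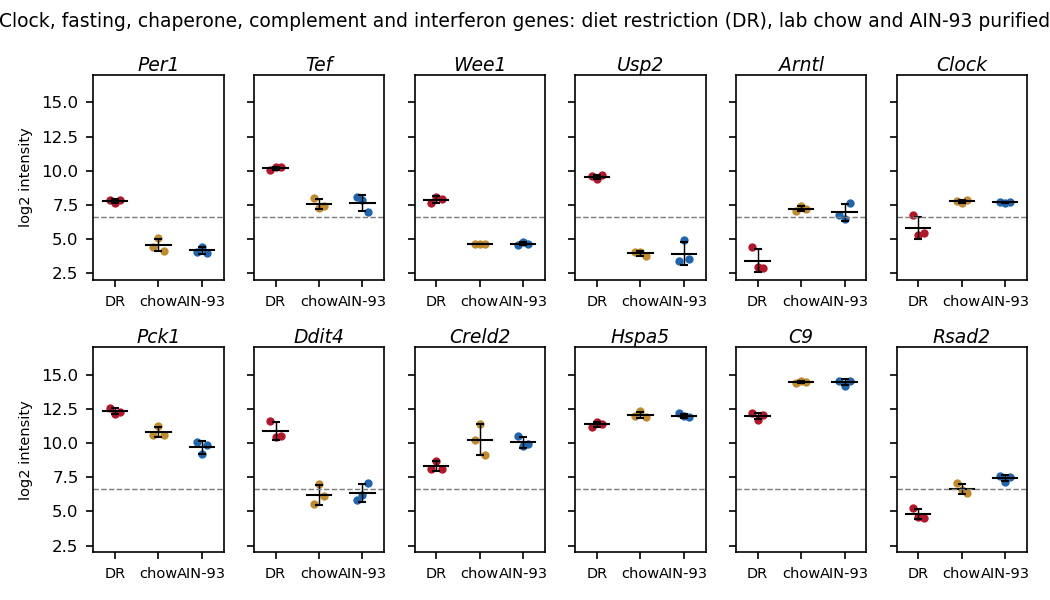
Log2 intensity in each mouse under diet restriction (DR), on lab chow and on AIN-93 purified for 6 clock genes and for Pck1, Ddit4, Creld2, Hspa5, C9 and Rsad2, with bars for the mean and whiskers for the standard deviation of 3 mice and a dashed line at the detection level. Restricted mice lie above the other 6 mice for Per1, Tef, Wee1, Usp2, Pck1 and Ddit4, and below them for Arntl, Clock, Creld2, Hspa5, C9 and Rsad2.

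Genes of the fasting response were more often higher than lower. In the insulin and fasting list, 12 of 26 genes were higher and 5 lower, with 6 higher and 4 lower among the 17 above the detection level on both diets. Ddit4, an inhibitor of mTORC1, read 11.63, 10.43 and 10.52 under diet restriction, 5.54, 6.98 and 6.15 on lab chow and 5.83, 6.18 and 7.07 on AIN-93, or 2265% of AIN-93 (95% confidence interval 904 to 5675, adjusted p = 5.6e-05). All restricted livers lay above all others. The PGC-1α gene Ppargc1a, a coactivator of gluconeogenesis, was higher by at least 4.30-fold (adjusted p = 2.4e-05) with all 5 of its probes higher, the salt-inducible kinase Sik1 higher by at least 2.54-fold (adjusted p = 1.4e-05) and the glycogen-targeting phosphatase subunit Ppp1r3g higher by at least 8.46-fold (adjusted p = 4.6e-08). FOXO1 transcript (Foxo1) rose to 256% (adjusted p = 1.8e-05) and that of the insulin receptor (Insr), a FOXO1 target, to 149% (adjusted p = 0.015). The 5 lower genes were the glycogen-targeting subunits Ppp1r3b at 34.7% (adjusted p = 0.0044) and Ppp1r3c at 33.6% (adjusted p = 0.032), Sesn3 at 42.7% (adjusted p = 1.7e-07), the insulin receptor adaptor Grb14 at 72.9% (adjusted p = 0.021) and the growth arrest gene Gadd45a (lower by at least 1.07-fold, adjusted p = 0.0062). In gluconeogenesis and glycogen, 10 of 23 were higher and 3 lower. Pck1, which commits oxaloacetate to glucose, read 12.59, 12.13 and 12.28 under diet restriction, 10.61, 11.25 and 10.56 on lab chow and 10.08, 9.16 and 9.83 on AIN-93, and was 623% (95% confidence interval 354 to 1093, adjusted p = 9.7e-05). Alanine transaminase Gpt was at 283% (adjusted p = 5.7e-06) and glycogen synthase Gys2 at 278% (adjusted p = 1.6e-06), while glycogen phosphorylase Pygl, lactate dehydrogenase Ldha and glycerol-3-phosphate dehydrogenase Gpd1 were lower, at 59.2% (adjusted p = 0.008), 57.8% (adjusted p = 0.0012) and 65.0% (adjusted p = 0.037). The last enzyme of glucose release, G6pc, was at 68.8% (adjusted p = 0.41) and not called, with 12.82, 10.82 and 11.34 under diet restriction, against 11.40, 12.69 and 12.51 on AIN-93. Insulin and fasting genes called lower numbered 3 without AIN-93 replicate 3. The call was lost for Insr without diet restriction replicate 3 or AIN-93 replicate 3 or with no filter (115% to 142%), Ppp1r3c without diet restriction replicate 2 or 3 or AIN-93 replicate 2 or 3 or with no filter (34.5% to 50.8%) and Grb14 without diet restriction replicate 1 or AIN-93 replicate 1 or 3 or with no filter or with the 6 arrays alone (72.9% to 79.7%). The call was also lost for Pygl without diet restriction replicate 1 (70.2%) and Gpd1 without diet restriction replicate 1 or AIN-93 replicate 2 or 3 or with no filter or with the 6 arrays alone (64.4% to 80.1%). The estimate moved for Pck1 to 393% by the brightest probe and Ddit4 to 1498% with array weights.

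Some glucocorticoid targets were higher and others were not called. Fkbp5, a cochaperone that the glucocorticoid receptor induces, read 11.48, 10.17 and 10.41 under diet restriction, against 6.63, 9.29 and 7.30 on AIN-93, or 771% (95% confidence interval 318 to 1869.8, adjusted p = 0.0033), and tyrosine aminotransferase Tat 364% (adjusted p = 0.0021). In the thyroid hormone and glucocorticoid list 8 of 21 were higher and 2 lower. Steroid hydroxylase Cyp17a1 was higher by at least 7.00-fold (adjusted p = 1.2e-04), with 9.41, 9.20 and 9.74 under diet restriction, 4.98, 4.90 and 3.72 on lab chow and 6.51, 6.60 and 6.32 on AIN-93. The glucocorticoid-responsive genes Tsc22d3, Sgk1, Zbtb16 and Dusp1 were not called, at 184% (adjusted p = 0.19), 213% (adjusted p = 0.11), 153% (adjusted p = 0.57) and 69.3% (adjusted p = 0.47). Deiodinase 1 (Dio1), which activates thyroid hormone and is itself a thyroid hormone target, fell to 17.8% (95% confidence interval 10.8 to 29.5, adjusted p = 5.1e-05), with 8.66, 9.38 and 7.92 under diet restriction, against 10.91, 11.09 and 11.43 on AIN-93. The metallothioneins, zinc-binding proteins that glucocorticoids and zinc induce, were among the largest rises. Mt1 read 14.53, 12.59 and 13.19 under diet restriction, against 7.38, 9.77 and 7.69 on AIN-93, and Mt2 read 14.05, 11.63 and 12.79 under diet restriction, against 6.56, 9.24 and 6.90 on AIN-93. Their levels were 3557% (adjusted p = 7.7e-04) and 3816% (adjusted p = 0.0032), with wide spreads on both diets. The value moved for Fkbp5 to 232% with no filter and 1318% without AIN-93 replicate 2, Mt1 to 5959% without AIN-93 replicate 2 and Mt2 to 6819% without AIN-93 replicate 2, 2495% without diet restriction replicate 1 and 5778% without diet restriction replicate 2.

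Fatty acid synthesis genes that were called were all lower. Of 24 detected, 14 were lower and 0 higher, with a median of 45.5% of AIN-93. Srebf1, which encodes the lipogenic regulator SREBP1, read 9.54, 10.70 and 10.46 under diet restriction, 11.09, 10.88 and 10.53 on lab chow and 11.48, 11.62 and 11.87 on AIN-93, or 37.2% (95% confidence interval 23.3 to 59.4, adjusted p = 0.0065). ATP citrate lyase (Acly) was at 20.9% (adjusted p = 0.0012), fatty acid synthase (Fasn) at 13.8% (adjusted p = 0.0094), the mitochondrial acetyl-CoA carboxylase Acacb at 31.9% (adjusted p = 0.016) and the polyunsaturated elongase Elovl5 at 18.1% (adjusted p = 3.0e-07). Desaturases changed less, Scd1 to 43.8% (adjusted p = 0.012), Fads1 to 65.5% (adjusted p = 0.039) and Fads2 to 56.1% (adjusted p = 0.049). The cytosolic carboxylase Acaca at 50.5% (adjusted p = 0.28), the elongase Elovl6 at 37.2% (adjusted p = 0.17), malic enzyme Me1 at 33.6% (adjusted p = 0.1) and Spot14 (Thrsp) at 37.4% (adjusted p = 0.13) were not called. Lab chow held several of these genes below AIN-93 too. Fasn was 23.5% (adjusted p = 0.057) of AIN-93 on lab chow, Acacb 38.8% (adjusted p = 0.047), Elovl5 51.2% (adjusted p = 0.011) and Thrsp 21.8% (adjusted p = 0.016), of which Fasn was not called. Against lab chow, 9 of the genes were lower under diet restriction, among them Elovl5 at 35.3% (adjusted p = 3.8e-05) and Acly at 44.4% (adjusted p = 0.034) of lab chow, while Srebf1 at 65.8% (adjusted p = 0.15) and Fasn at 58.7% (adjusted p = 0.41) were not called. In the carbohydrate list 3 of 11 were lower and 0 higher, namely pyruvate kinase Pklr at 35.0% (adjusted p = 0.044), ChREBP (Mlxipl) at 57.3% (adjusted p = 0.033) and the pentose phosphate isomerase Rpia (lower by at least 1.18-fold, adjusted p = 0.0086). Rgs16, a G protein regulator that sugar induces in liver, read 10.54, 11.73 and 12.31 under diet restriction, 4.51, 4.89 and 3.30 on lab chow and 10.00, 10.87 and 9.33 on AIN-93. It was not called against AIN-93 (adjusted p = 0.38) but was at least 29.6-fold higher than on lab chow (adjusted p = 4.5e-06), where all 3 livers lay below the detection level. Fatty acid synthesis genes called lower numbered 7 without AIN-93 replicate 3 and 9 without diet restriction replicate 1 or with no filter. Carbohydrate list genes called lower numbered 1 without diet restriction replicate 1 or 3 or AIN-93 replicate 3 or with no filter. The threshold was missed by Fasn without diet restriction replicate 1 or AIN-93 replicate 3 (17.1% to 25.2%), Acacb without diet restriction replicate 1 or AIN-93 replicate 3 or with no filter (38.1% to 56.5%) and Scd1 without diet restriction replicate 1 or AIN-93 replicate 2 or 3 (47.0% to 50.1%). The call was also lost for Fads1 without diet restriction replicate 2 or 3 or AIN-93 replicate 2 or 3 or with no filter (67.0% to 70.6%), Fads2 without diet restriction replicate 1 or 2 or AIN-93 replicate 2 or 3 or with arrays centred or by the brightest probe or with no filter (55.4% to 62.9%) and Pklr without diet restriction replicate 1 or 3 or AIN-93 replicate 1, 2 or 3 or by the brightest probe or with no filter or with the robust prior (31.4% to 44.1%). The call was also lost for Mlxipl without diet restriction replicate 1 or 3 or AIN-93 replicate 1 or 3 or with no filter (56.6% to 62.8%). The percent moved for Acly to 40.7% with no filter and Fasn to 8.04% without diet restriction replicate 2.

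Genes of triglyceride synthesis and lipid droplets were called in both directions. G0s2, the inhibitor of adipose triglyceride lipase, read 8.13, 8.68 and 9.12 under diet restriction, against 10.88, 13.15 and 12.39 on AIN-93, or 8.83% (95% confidence interval 3.90 to 20.0, adjusted p = 2.7e-04). The lipase itself, Pnpla2, read 8.59, 7.83 and 8.13 under diet restriction, against 6.32, 6.70 and 6.30 on AIN-93 and was 334% (95% confidence interval 259 to 432, adjusted p = 8.0e-07). The arrays of the diets did not overlap for either gene. The droplet coat Plin2 fell to 33.2% (adjusted p = 9.3e-05) and the acyltransferase Agpat2 to 28.2% (adjusted p = 2.4e-07), whereas the phosphatidate phosphatase Lpin2 rose to 671% (adjusted p = 7.7e-06) by 4 probes. Angptl8, a feeding-induced inhibitor of lipoprotein lipase, was at 6.14% (adjusted p = 0.0045), and Angptl4, its fasting-induced counterpart, at 580.0% (adjusted p = 3.3e-04). The list as a whole had 4 higher and 6 lower of 25. Lpin1 was not called against AIN-93 at 336% (adjusted p = 0.16), and was 1746% (adjusted p = 2.4e-04) of lab chow. Of the fatty acid binding proteins, Fabp5 read 7.06, 8.65 and 7.83 under diet restriction, 8.77, 9.14 and 9.46 on lab chow and 11.82, 12.44 and 13.40 on AIN-93, or 3.83% of AIN-93 (95% confidence interval 1.73 to 8.46, adjusted p = 5.2e-06). It was 9.30% (adjusted p = 2.4e-04) on lab chow and 41.2% (adjusted p = 0.074) under diet restriction relative to lab chow, a difference that was not called. Intestinal Fabp2 was at 33.4% (adjusted p = 5.3e-06) and the abundant liver Fabp1 at 71.7% (adjusted p = 1.5e-04). Vldlr, the receptor for very low density lipoprotein, was higher by at least 3.02-fold (adjusted p = 2.0e-05), and the phospholipid transfer protein Pltp was 31.2% (adjusted p = 0.012). In uptake and transport, 4 of 31 were higher and 6 lower, and apolipoproteins Apoa5, Apob and Apom were not called, at 118% (adjusted p = 0.37), 127% (adjusted p = 0.25) and 123% (adjusted p = 0.21). Uptake and transport genes called higher numbered 2 without diet restriction replicate 1. No call was made for Pltp without AIN-93 replicate 2 or with no filter (34.9% to 39.5%). The estimate moved for G0s2 to 5.71% without AIN-93 replicate 1, Pnpla2 to 184% with no filter and Lpin2 to 386% by the brightest probe. The estimate moved for Angptl8 to 3.13% without AIN-93 replicate 1 and Angptl4 to 290.4% with no filter.

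Part of mitochondrial β-oxidation was higher. Of 26 genes, 6 were higher and 0 lower, with a median of 115%. The medium- and long-chain dehydrogenases Acadm and Acadl were at 168% (95% confidence interval 137 to 206, adjusted p = 0.0015) and 154% (95% confidence interval 131 to 181, adjusted p = 8.0e-04), and the enoyl-CoA isomerase Eci2 at 198% (adjusted p = 0.0065). The gatekeeper Cpt1a was at 133% (adjusted p = 0.35) and not called. The receptor PPARα (Ppara), which induces these genes, rose to 224% (adjusted p = 1.8e-04) by 3 probes. Among peroxisomal and microsomal targets of PPARα, Cyp4a14, a fatty acid ω-hydroxylase, read 14.32, 14.60 and 14.42 under diet restriction, 11.06, 10.03 and 9.93 on lab chow and 6.03, 8.26 and 3.79 on AIN-93. AIN-93 livers ranged widely, so the size of its difference is uncertain (adjusted p = 1.6e-05, 34230.0% of AIN-93), and every restricted liver lay above every lab chow and AIN-93 liver. The acyl-CoA thioesterases Acot3, Acot4 and Acot1 were higher by at least 9.08-fold (adjusted p = 1.1e-10), higher by at least 1.33-fold (adjusted p = 9.7e-07) and 502% (adjusted p = 0.0087). The bifunctional enzyme Ehhadh was at 203% (adjusted p = 0.0013), the long-chain transporter gene Abcd2 higher by at least 1.41-fold (adjusted p = 2.9e-08) and catalase (Cat) lower at 74.4% (adjusted p = 0.02). The list had 11 higher and 6 lower of 28, with 6 higher and 6 lower among the 23 above the detection level on both diets. Ehhadh and Acot1 were not called against lab chow, at 126% (adjusted p = 0.18) and 165% (adjusted p = 0.32) of it. Peroxisomal and omega oxidation genes called lower numbered 3 without AIN-93 replicate 1 or 2 or with no filter. The call was lost for Cat without diet restriction replicate 1 or AIN-93 replicate 1 or 2 (74.6% to 77.0%). The value moved for Cyp4a14 to 72789% with array weights, 74271% without AIN-93 replicate 2 and 15746% without AIN-93 replicate 3.

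Sterol synthesis genes were lower where called, with 1 exception. Of 20 genes of synthesis and uptake, 9 were lower and 1 higher, and the median was 61.0%. Hmgcs1, which makes HMG-CoA for the mevalonate arm, read 8.92, 10.10 and 9.42 under diet restriction, against 10.67, 10.90 and 11.61 on AIN-93, or 33.5% (95% confidence interval 22.1 to 50.6, adjusted p = 8.8e-04). The desaturase Sc5d of the late arm was at 31.5% (95% confidence interval 23.1 to 43.0, adjusted p = 1.9e-05). Insig2, the endoplasmic reticulum anchor that holds SREBPs back, read 10.65, 9.90 and 10.03 under diet restriction, against 12.04, 12.41 and 12.80 on AIN-93, or 21.4% (95% confidence interval 15.4 to 29.7, adjusted p = 8.1e-07). Its relative Insig1 was at 60.4% (adjusted p = 0.1) and not called. Farnesyl diphosphate synthase Fdps and isomerase Idi1 were called although their arrays overlapped, at 37.8% (adjusted p = 0.009) and 49.4% (adjusted p = 0.0071). Npc1, which exports cholesterol from lysosomes, was the 1 higher gene at 244% (adjusted p = 6.0e-04). On lab chow this list had 1 higher and 0 lower genes against AIN-93, and a median of 98.2%. Bile acid and sterol export genes moved both ways, with 6 of 20 higher and 5 lower. Cyp39a1, the 24-hydroxycholesterol hydroxylase, which is female-biased in mice, read 11.80, 11.11 and 11.37 under diet restriction, against 7.74, 7.99 and 7.61 on AIN-93, or 1254% (95% confidence interval 896 to 1756, adjusted p = 6.5e-10). Cyp8b1, which directs synthesis to cholic acid, read 10.28, 8.85 and 8.98 under diet restriction, against 12.05, 12.12 and 11.82 on AIN-93, or 16.2% (95% confidence interval 9.00 to 29.2, adjusted p = 1.7e-04). The steroid isomerase Hsd3b7 was 25.2% (95% confidence interval 20.4 to 31.2, adjusted p = 7.5e-09). Cyp7a1, the rate-limiting enzyme of bile acid synthesis, read 10.28, 8.75 and 8.81 under diet restriction, against 8.20, 9.21 and 6.54 on AIN-93. Its arrays overlapped and it was not called (245%, adjusted p = 0.37). The sterol half-transporters Abcg5 and Abcg8, which act as a pair in biliary cholesterol export, were 349.9% (adjusted p = 9.3e-05) and 304% (adjusted p = 3.5e-04), and the bile salt export pump Abcb11 was lower at 60.2% (adjusted p = 1.1e-04). Sterol synthesis and uptake genes called lower numbered 3 without AIN-93 replicate 3. Bile acid and sterol export genes called lower numbered 3 with no filter. Calls were lost for Fdps without AIN-93 replicate 3 (46.7%) and Idi1 without AIN-93 replicate 3 or with the 6 arrays alone (49.4% to 56.5%). The percent moved for Sc5d to 50.4% by the brightest probe and Fdps to 61.5% with no filter.

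**Figure D5:**
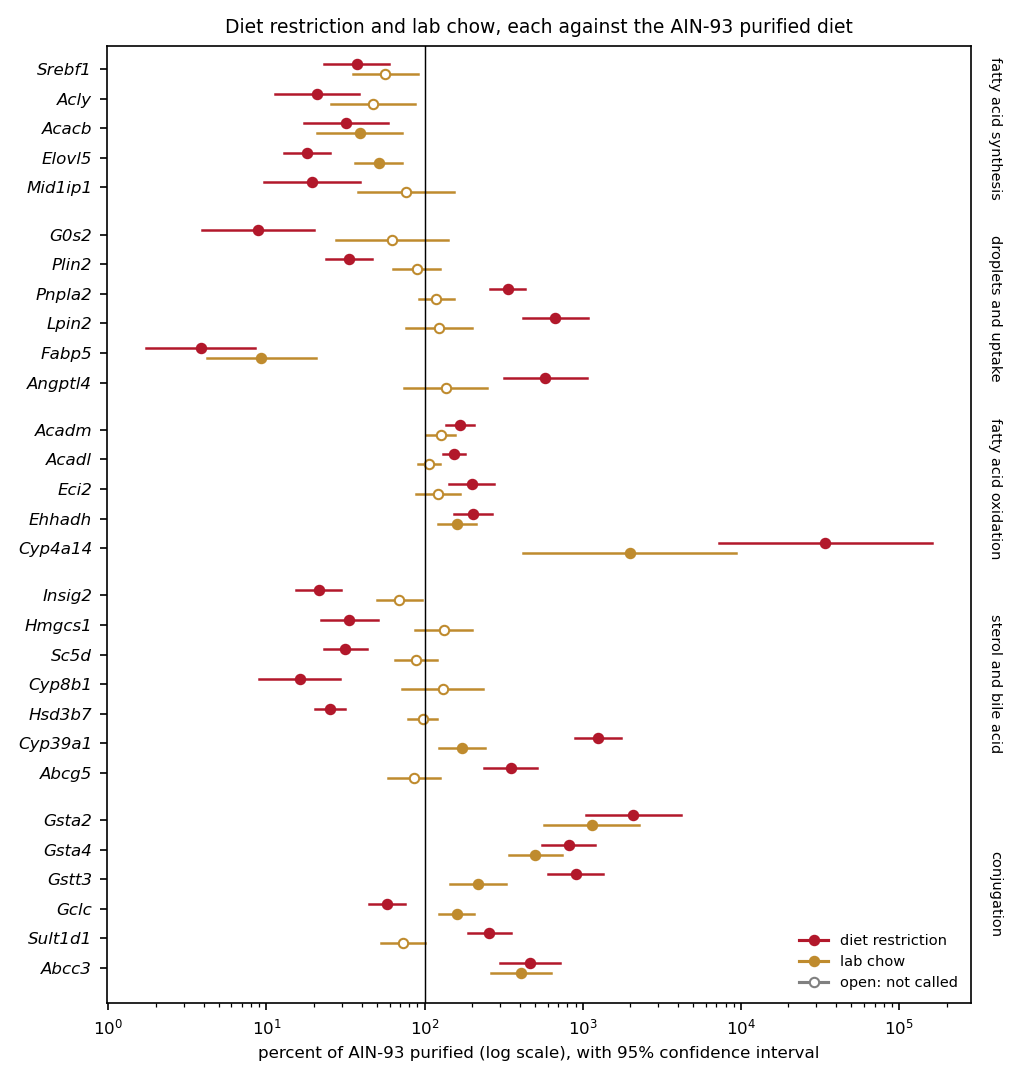
Percent of AIN-93 purified on a log axis for 29 lipid, sterol and conjugation genes under diet restriction (red, upper) and on lab chow (ochre, lower), with 95% confidence intervals and open symbols where not called. Diet restriction and lab chow lie on opposite sides of 100% for Gclc, at 57.8% and 159%, while Gsta2, Gsta4, Gstt3 and Abcc3 lie above it on both.

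Drug-metabolizing genes were more often higher than lower. Of 30 xenobiotic P450 and partner genes, 17 were higher and 6 lower, with 14 higher and 5 lower among the 26 above the detection level on both diets. On lab chow 9 of the 30 were higher and 2 lower than on AIN-93. Against lab chow, 11 were higher and 7 lower under diet restriction, with a median of 98.4% of lab chow. Cyp3a11, the main CYP3A of mouse liver, read 15.22, 14.89 and 15.04 under diet restriction, 15.24, 15.15 and 15.24 on lab chow and 14.05, 14.06 and 13.65 on AIN-93, and Cyp1a2, which oxidizes caffeine and aromatic amines, read 13.46, 14.03 and 13.59 under diet restriction, 13.51, 13.75 and 14.07 on lab chow and 12.64, 11.98 and 12.15 on AIN-93. They were 219% (adjusted p = 0.0024) and 271% (adjusted p = 7.9e-05) of AIN-93, and on lab chow 245% (adjusted p = 6.7e-04) and 287% (adjusted p = 4.0e-05), both called. Against lab chow, Cyp3a11 was 89.5% (95% confidence interval 64.5 to 124, adjusted p = 0.62) and Cyp1a2 94.4% (95% confidence interval 69.8 to 128, adjusted p = 0.79), neither called. Cyp2b10 differed from this, at 10.03, 8.84 and 9.12 under diet restriction, 5.78, 4.72 and 5.43 on lab chow and 2.29, 2.29 and 2.30 on AIN-93, and was higher by at least 6.44-fold (adjusted p = 1.7e-13) against AIN-93. The xenobiotic receptors CAR (Nr1i3), which drives Cyp2b10, and PXR (Nr1i2) were 388% (adjusted p = 9.7e-07) and 266% (adjusted p = 3.8e-05), and the aryl hydrocarbon receptor Ahr 180.5% (adjusted p = 0.02). Of 31 glutathione genes, 12 were higher and 2 lower, with a median of 124% of AIN-93. Lab chow gave 13 higher and 0 lower in this list, with a median of 131% of AIN-93. Against lab chow, 7 were higher and 7 lower under diet restriction. Gsta2 read 13.83, 13.66 and 13.61 under diet restriction, 13.41, 12.60 and 12.48 on lab chow and 9.62, 9.45 and 8.87 on AIN-93, or 2092% (95% confidence interval 1046 to 4182, adjusted p = 2.2e-06). Gsta4, which conjugates the lipid peroxidation product 4-hydroxynonenal, read 11.44, 11.67 and 11.17 under diet restriction, 10.90, 10.56 and 10.71 on lab chow and 8.33, 8.47 and 8.38 on AIN-93, or 816% (95% confidence interval 555 to 1199, adjusted p = 9.8e-08). Gstt2 was at 873% (adjusted p = 9.2e-09), Gstt3 at 900.2% (adjusted p = 1.0e-07) and Gstm3 at 1715% (adjusted p = 3.4e-07). These enzymes conjugate glutathione to electrophiles. Gclc, the catalytic subunit of the rate-limiting step of glutathione synthesis, went the other way with 10.18, 10.77 and 10.51 under diet restriction, 11.83, 11.96 and 12.05 on lab chow and 11.56, 10.93 and 11.34 on AIN-93, or 57.8% of AIN-93 (95% confidence interval 44.7 to 74.8, adjusted p = 0.0062) and 36.3% (adjusted p = 1.9e-06) of lab chow. Its modifier Gclm was at 124% (adjusted p = 0.16) and not called, and the second enzyme Gss at 237% (adjusted p = 0.0017). Of 21 Nrf2 targets and antioxidant genes, 6 were higher and 1 lower. Lab chow gave 6 higher and 0 lower against AIN-93, and against lab chow 3 were higher and 3 lower under diet restriction. Carbonyl reductase Cbr1 was at 492% (adjusted p = 1.9e-09) and Akr1c19 at 508% (adjusted p = 2.7e-08), both called. Among conjugating enzymes, 7 of 19 were higher and 4 lower, and the sulfotransferases Sult1d1 and Sult1a1 and the sulfate donor enzyme Papss2 were at 257% (adjusted p = 2.7e-04), 219% (adjusted p = 4.3e-05) and 224% (adjusted p = 4.4e-04). On lab chow 5 of the 19 were higher and 0 lower than on AIN-93. Against lab chow, 7 were higher and 6 lower under diet restriction, with a median of 83.9% of lab chow. The threshold was missed by Ahr without diet restriction replicate 1 or 2 or AIN-93 replicate 1 or 3 or with no filter (134% to 179%) and Gclc by the brightest probe (72.1%).

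Transporters that carry drugs and bile salts were 7 higher and 5 lower of 21. The efflux pump Abcb1a read 6.84, 6.96 and 6.64 under diet restriction, 2.56, 2.56 and 2.56 on lab chow and 2.51, 2.56 and 2.56 on AIN-93, and was higher by at least 1.12-fold (adjusted p = 6.9e-14). Restricted livers lay close to the detection level and all others near the lowest value. The conjugate exporters Abcc2 and Abcc3 were 218% (adjusted p = 2.3e-05) and 466% (adjusted p = 3.7e-05), and Abcc3 on lab chow was 406% (adjusted p = 1.1e-04). The organic anion carrier Slc22a7 read 7.64, 6.97 and 6.19 under diet restriction, against 10.56, 10.21 and 10.91 on AIN-93, or 8.08% (95% confidence interval 3.63 to 18.0, adjusted p = 1.4e-04). The uptake carriers Slco1b2 and Slc10a1 were not called, at 83.6% (adjusted p = 0.55) and 112% (adjusted p = 0.61). Breast cancer resistance protein Abcg2 was lower, at 59.6% (adjusted p = 0.019). No call was made for Abcg2 without diet restriction replicate 1 or AIN-93 replicate 2 or 3 or with no filter (59.6% to 66.9%).

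Amino acid catabolism was higher in many of its steps. Of 52 genes, all above the detection level on both diets, 21 were higher and 3 lower, with a median of 132%. In the urea cycle Asl, the argininosuccinate lyase, read 13.73, 12.84 and 12.88 under diet restriction, 12.29, 12.42 and 12.13 on lab chow and 11.53, 11.91 and 11.50 on AIN-93, or 284% (95% confidence interval 214 to 376, adjusted p = 1.9e-05). Its partner Ass1 was at 378% (adjusted p = 0.014) and arginase Arg1 at 144% (adjusted p = 0.0037), while the mitochondrial steps Cps1 and Otc were not called, at 118% (adjusted p = 0.11) and 82.3% (adjusted p = 0.25). The cationic amino acid carrier Slc7a2 was at 303% (adjusted p = 9.6e-04) by 4 probes, proline dehydrogenase Prodh at 187% (adjusted p = 0.025) and Hpd of tyrosine breakdown at 128% (adjusted p = 0.016). Lower were aromatic amino acid decarboxylase Ddc at 23.8% (adjusted p = 9.3e-05), and Kynu at 39.4% (adjusted p = 1.3e-07) and Haao at 72.1% (adjusted p = 0.0083) of tryptophan breakdown. On lab chow, which is richer in protein than AIN-93, 5 genes of this list were higher and 0 lower, among them Asl at 155% (adjusted p = 0.042). Against lab chow, 12 were higher and 3 lower under diet restriction. Arg1 at 117% (adjusted p = 0.12) and Ass1 at 192% (adjusted p = 0.14) of lab chow were not called. In sulfur amino acid metabolism, cystathionase Cth was at 224% (adjusted p = 0.0033) and methionine adenosyltransferase Mat1a at 182% (adjusted p = 0.015), while cystathionine synthase Cbs was lower at 59.1% (adjusted p = 0.0088). Csad, which makes taurine's precursor, read 9.38, 9.73 and 8.43 under diet restriction, 12.78, 12.72 and 13.17 on lab chow and 10.74, 10.55 and 9.93 on AIN-93, so it was not called against AIN-93 (adjusted p = 0.08) but was 7.62% (adjusted p = 1.2e-06) of lab chow. The call was lost for Ass1 without AIN-93 replicate 2 or with no filter (287% to 378%), Prodh without diet restriction replicate 1 or 3 or AIN-93 replicate 1, 2 or 3 or with no filter (169% to 191%) and Hpd without diet restriction replicate 1 or AIN-93 replicate 3 (122% to 126%). The call was also lost for Mat1a without diet restriction replicate 1 or AIN-93 replicate 1 or 3 (163% to 179%) and Cbs without diet restriction replicate 1 (66.0%). The percent moved for Ddc to 48.8% with no filter.

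Part of the chaperones of the endoplasmic reticulum (ER) were lower. Of 31 genes 8 were lower and 1 higher, with a median of 86.1%, against 99.2% over all genes described. Creld2, a secreted ER stress protein, read 8.11, 8.71 and 8.08 under diet restriction, 10.20, 11.38 and 9.12 on lab chow and 10.51, 9.76 and 9.90 on AIN-93, or 29.6% of AIN-93 (95% confidence interval 15.5 to 56.3, adjusted p = 0.014). BiP (Hspa5), the master chaperone, read 11.19, 11.56 and 11.39 under diet restriction, 12.01, 12.32 and 11.88 on lab chow and 12.16, 11.96 and 11.88 on AIN-93, or 65.0% (95% confidence interval 52.4 to 80.8, adjusted p = 0.01). Manf was at 36.7% (adjusted p = 0.0042), the ubiquitin ligase Syvn1 at 56.3% (adjusted p = 0.025) and the transcription factor Xbp1 at 63.6% (adjusted p = 0.01). Herpud1, a stress-induced ligase partner, was the 1 higher gene, at 257% (adjusted p = 0.0012) by 2 probes. Calreticulin (Calr), a glycoprotein chaperone, was at 69.0% (adjusted p = 0.2) and not called. Among cytosolic and mitochondrial chaperones, 5 of 30 were higher and 5 lower, near the shares over all genes. The inducible Hspa1b read 7.40, 6.48 and 6.61 under diet restriction, against 8.79, 9.33 and 8.68 on AIN-93, or 23.2% (95% confidence interval 12.2 to 44.5, adjusted p = 0.004), and its cofactor Bag3 was at 51.4% (adjusted p = 0.0067), whereas mitochondrial Hspd1 was at 142% (adjusted p = 0.0039). ER list genes called lower numbered 3 without AIN-93 replicate 1, 4 with no filter and 5 without AIN-93 replicate 3. Heat shock list genes called lower numbered 2 without AIN-93 replicate 2 and 3 without diet restriction replicate 3 or AIN-93 replicate 3. Calls were lost for Creld2 without AIN-93 replicate 1 or with no filter (29.6% to 34.6%), Hspa5 without AIN-93 replicate 1 (68.8%) and Syvn1 without diet restriction replicate 1 or 3 or AIN-93 replicate 1 or 3 or with no filter (56.3% to 59.1%). Calls were also lost for Bag3 without AIN-93 replicate 2 (60.3%).

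Promoters of 4 genes of the ER and heat shock lists that were lower are shown for the stress elements they carry. The ER stress element, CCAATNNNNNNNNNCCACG, which ATF6 and NF-Y bind, was present in 9 of the 27 list members with a RefSeq window. It was in 39 of 32851 windows of this length (0.12%) and in 0.14% of all genes with a window. Of the 9, Creld2, Hspa5 and Syvn1 were lower, and none was higher. The others, Calr among them, were not called, and over the whole list 8 of 31 were lower. The heat shock element GAANNTTC was present in 11 of 23 heat shock list members with a window. It was in 7.86% of all windows and in 9.04% of all genes with a window. Among the members that held it and are named here, Hspa1b and Bag3 were lower and Hspd1 was higher, while Dnaja1, Hspb1, Hspe1 and Hsph1 were not called. The remaining members that held it are not described. Capitals mark the ER stress element in Creld2 (chr15:88819396-88819645, plus strand), Hspa5 (chr2:34771840-34772089, plus strand) and Syvn1 (chr19:6046326-6046575, plus strand), and the heat shock element in Hspa1b (chr17:34959239-34959488, minus strand), all in GRCm38.p6 and up to the start. The STAT5 letters TTCNNNGAA, searched in the same way, were in 0 of 14 male-biased and 3 of 15 female-biased members with a window. They were in 8.30% of all windows and in 9.55% of all genes with a window.
Creld2: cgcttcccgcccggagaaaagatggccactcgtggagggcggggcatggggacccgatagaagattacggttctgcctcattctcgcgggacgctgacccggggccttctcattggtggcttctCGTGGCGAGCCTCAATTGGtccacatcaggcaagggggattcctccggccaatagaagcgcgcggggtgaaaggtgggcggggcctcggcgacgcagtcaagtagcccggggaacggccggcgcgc
Hspa5: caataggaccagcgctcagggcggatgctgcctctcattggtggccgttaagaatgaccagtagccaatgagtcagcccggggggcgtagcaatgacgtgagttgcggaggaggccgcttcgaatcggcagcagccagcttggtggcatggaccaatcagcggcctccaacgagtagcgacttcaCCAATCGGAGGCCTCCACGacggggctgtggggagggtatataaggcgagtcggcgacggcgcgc
Syvn1: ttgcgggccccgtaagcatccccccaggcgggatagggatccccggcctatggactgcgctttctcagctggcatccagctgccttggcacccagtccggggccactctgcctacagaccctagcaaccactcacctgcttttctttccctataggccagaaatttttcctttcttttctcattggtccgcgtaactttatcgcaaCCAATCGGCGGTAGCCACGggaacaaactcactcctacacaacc
Hspa1b: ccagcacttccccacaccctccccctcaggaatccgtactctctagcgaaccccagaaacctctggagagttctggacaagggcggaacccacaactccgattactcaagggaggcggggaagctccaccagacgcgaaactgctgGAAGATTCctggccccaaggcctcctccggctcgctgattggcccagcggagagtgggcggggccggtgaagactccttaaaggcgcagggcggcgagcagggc

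Complement genes were lower without exception among those called. Of 25 detected, 13 were lower and 0 higher, with a median of 63.3%. Components of the membrane attack complex, which opens pores in microbes, were among them. C9 read 12.18, 11.70 and 12.04 under diet restriction, 14.39, 14.55 and 14.49 on lab chow and 14.56, 14.18 and 14.56 on AIN-93, or 18.2% of AIN-93 (95% confidence interval 14.8 to 22.3, adjusted p = 1.2e-10). C6, which is also male-biased, read 6.94, 7.56 and 6.88 under diet restriction, against 10.54, 10.44 and 10.81 on AIN-93, or 9.03% (95% confidence interval 5.95 to 13.7, adjusted p = 4.0e-08). C8a, C8b and C8g, the 3 chains of C8, were at 22.4% (adjusted p = 1.2e-08), 23.2% (adjusted p = 5.1e-06) and 65.1% (adjusted p = 3.5e-05), and C5 (Hc) at 63.3% (adjusted p = 0.0089). The inhibitors C4bp and Serping1 were at 43.1% (adjusted p = 2.6e-07) and 58.7% (adjusted p = 0.001) and the lectin Mbl1 at 37.7% (adjusted p = 9.7e-07), while Mbl2 at 112% (adjusted p = 0.5), factor B (Cfb) at 84.8% (adjusted p = 0.35) and factor I (Cfi) at 79.8% (adjusted p = 0.057) were not called. Coagulation factors varied less, with 1 of 24 higher and 3 lower. The fibrinogen chains Fga, Fgb and Fgg were at 77.3% (adjusted p = 0.012), 75.2% (adjusted p = 0.013) and 77.3% (adjusted p = 0.031), histidine-rich glycoprotein Hrg at 144% (adjusted p = 0.014), and prothrombin (F2) at 88.2% (adjusted p = 0.13) was not called. Of 34 acute phase and metal-binding genes 8 were higher and 4 lower. The serum amyloid genes, typical acute phase reactants, fell. Saa1 read 6.66, 7.59 and 9.20 under diet restriction, 10.91, 11.27 and 11.56 on lab chow and 13.52, 11.13 and 13.89 on AIN-93, or 3.06% (95% confidence interval 0.922 to 10.1, adjusted p = 3.4e-04), and Saa2 was at 3.78% (adjusted p = 0.0015). Haptoglobin (Hp), another acute phase protein, was at 104% (adjusted p = 0.9) and not called. C/EBPβ (Cebpb), which drives such genes, was at 441% (adjusted p = 4.2e-04), and C/EBPα (Cebpa) at 39.9% (adjusted p = 1.0e-05). Coagulation genes called lower numbered 0 without diet restriction replicate 3 or AIN-93 replicate 3. Acute phase list genes called lower numbered 2 without AIN-93 replicate 2 or 3. The threshold was missed by Hc without AIN-93 replicate 3 (67.7%), Fga without diet restriction replicate 3 or AIN-93 replicate 3 (79.1% to 80.0%) and Fgb without diet restriction replicate 3 or AIN-93 replicate 3 or with the 6 arrays alone (75.2% to 80.4%). The call was also lost for Fgg without diet restriction replicate 2 or 3 or AIN-93 replicate 2 or 3 or with no filter or with the 6 arrays alone (76.5% to 85.0%) and Hrg without AIN-93 replicate 2 (141%). The value moved for Saa1 to 1.69% without AIN-93 replicate 2 and 1.89% without diet restriction replicate 3 and Saa2 to 2.04% without AIN-93 replicate 2 and 5.74% without AIN-93 replicate 3.

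Interferon-induced and antigen presentation genes that were called were lower, with 1 exception. Of 18 toll-like receptor and interferon genes 12 were lower and 1 higher, with 1 higher and 3 lower among the 7 above the detection level on both diets. Rsad2 (viperin) read 5.23, 4.62 and 4.52 under diet restriction, 7.04, 6.58 and 6.35 on lab chow and 7.61, 7.17 and 7.48 on AIN-93, and lay below the detection level in every restricted liver (lower by at least 1.71-fold, adjusted p = 3.2e-06). The interferon-γ-induced GTPase Ifi47 read 5.48, 6.94 and 6.19 under diet restriction, against 9.04, 8.87 and 9.42 on AIN-93, or 13.4% (95% confidence interval 7.70 to 23.1, adjusted p = 2.3e-05). The antiviral Ifit1 and the chemokine Cxcl9 were lower by at least 1.64-fold (adjusted p = 1.6e-05) and lower by at least 3.28-fold (adjusted p = 0.0025). The 1 higher gene was Nfkbia, the inhibitor of NF-κB, at 265% (adjusted p = 8.4e-05) by 4 probes. In the MHC list 10 of 17 were lower and 0 higher, with 0 higher and 5 lower among the 12 above the detection level on both diets. β2-microglobulin (B2m), which all class I molecules need, read 14.58, 14.43 and 14.16 under diet restriction, against 14.83, 14.90 and 14.87 on AIN-93, or 72.0% (95% confidence interval 62.3 to 83.3, adjusted p = 0.0039). The peptide transporter Tap1 was lower by at least 1.41-fold (adjusted p = 0.0034). Immunoproteasome subunits Psmb8 and Psmb9 were 44.2% (adjusted p = 0.012) and lower by at least 2.22-fold (adjusted p = 5.8e-04), and class II H2-Eb1 was lower by at least 1.43-fold (adjusted p = 0.0042). These genes are expressed by several liver cell types, and in whole liver fewer cells of a type and less RNA per cell cannot be told apart. Of 16 Kupffer cell markers 13 were detected and 3 of them lower, Clec4f at 33.2% (adjusted p = 0.0016), Mpeg1 at 30.5% (adjusted p = 0.0041) and Ctss at 41.2% (adjusted p = 0.025). Their mean log2 level ranged from 7.43 to 8.64 in restricted livers and from 8.52 to 9.01 on AIN-93. Stellate markers (9 of 13 detected) ranged from 7.94 to 8.38 in restricted livers and from 8.78 to 8.93 on AIN-93, with the collagen gene Col3a1 lower at 22.7% (adjusted p = 0.0023). Endothelial markers (9 of 12 detected) ranged from 7.16 to 7.77 in restricted livers and from 7.50 to 7.82 on AIN-93, with Stab1 lower at 60.4% (adjusted p = 0.0029). The median marker was 51.9% of AIN-93 under diet restriction and 58.9% on lab chow for Kupffer cells, 69.8% and 68.7% for stellate cells, and 83.5% and 70.9% for endothelium. Hepatocyte markers (6 detected) lay between 14.15 and 14.33 in restricted and between 14.21 and 14.29 in AIN-93 livers. Of 4 B cell markers on the array 1 was detected, at 4.07 to 4.96 in restricted and 4.96 to 8.52 in AIN-93 livers, and was not called. Markers of cholangiocytes, of T and NK cells and of pancreatic acini were not detected (0 of 6, 0 of 7 and 0 of 6 on the array). The red cell gene Alas2 was at 21.3% (adjusted p = 3.9e-08). The part of cell composition in the immune results was not tested. MHC list genes called lower numbered 4 without AIN-93 replicate 3 and 5 without diet restriction replicate 3 or AIN-93 replicate 2 or with no filter. No call was made for Psmb8 without diet restriction replicate 1 or AIN-93 replicate 3 or with no filter (49.2% to 62.6%) and Ctss without diet restriction replicate 1 or 3 or AIN-93 replicate 2 or 3 or with no filter (40.9% to 50.5%). The percent moved for Col3a1 to 43.0% with no filter.

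The machinery of respiration, translation and protein breakdown gave few calls. Of 69 respiratory chain and ATP synthase genes 6 were higher and 1 lower, and the median was 103%. Ndufs1 and Ndufv1 of complex I were at 143% (adjusted p = 5.5e-04) and 139% (adjusted p = 0.0023). Of 41 ribosomal protein genes 0 were higher and 2 lower against AIN-93. Both lower genes, Rpl7l1 at 62.6% (adjusted p = 0.0014) and Rps27l at 84.4% (adjusted p = 0.034), encode relatives of ribosomal proteins. Against lab chow, with p adjusted on its own, 18 were higher and 2 lower, with a median of 117% of lab chow. With p adjusted within the comparison, 5 were higher and 2 lower against AIN-93, with a median of 108.6% of AIN-93. Of 37 proteasome genes 6 were higher and 3 lower, the assembly chaperone Psmd9 at 207% (adjusted p = 1.1e-05) and, besides the immunoproteasome subunits, Psmd11 lower at 70.8% (adjusted p = 0.0027). Markers of the liver zones held calls in both directions. Pericentral genes had 6 higher and 3 lower of 18, and periportal genes 7 and 1 of 20. The pericentral glutamate carrier Slc1a2 was at 251% (adjusted p = 4.4e-05) and the pericentral tight junction gene Cldn2 at 30.4% (adjusted p = 3.2e-06), and the periportal steroid dehydrogenase Hsd17b6 at 881% (adjusted p = 0.0014). Of 23 nuclear receptors and liver transcription factors 6 were higher and 4 lower. Of 7 cell cycle genes 2 were lower and 0 higher, and of 12 growth arrest and p53 targets 5 and 1. The estrogen receptor Esr1 was at 334% (adjusted p = 0.017), and the glucocorticoid receptor Nr3c1 at 73.6% (adjusted p = 0.087) was not called. Car3, a carbonic anhydrase of adipose tissue and male liver, read 7.82, 8.89 and 9.16 under diet restriction, 13.07, 13.12 and 13.57 on lab chow and 12.75, 13.38 and 12.16 on AIN-93, or 5.67% (95% confidence interval 2.80 to 11.5, adjusted p = 6.2e-06), with all 4 of its probes lower. Respiratory genes called higher numbered 3 without diet restriction replicate 1 or AIN-93 replicate 1 or 2. Proteasome genes called lower numbered 1 with no filter. Proteasome genes called higher numbered 1 without AIN-93 replicate 1, 2 without diet restriction replicate 2 and 3 without diet restriction replicate 3 or with no filter. Nuclear receptor list genes called lower numbered 2 without diet restriction replicate 2 or AIN-93 replicate 3. Growth arrest list genes called lower numbered 3 without diet restriction replicate 2 or 3 or AIN-93 replicate 2 or 3 or with no filter. The call was lost for Rps27l without diet restriction replicate 1 or 2 or AIN-93 replicate 1, 2 or 3 or with arrays centred or with the 6 arrays alone (83.3% to 86.0%), Psmd11 with no filter (90.9%) and Esr1 without diet restriction replicate 3 or AIN-93 replicate 1 or 2 or with no filter (223% to 307%). The estimate moved for Cldn2 to 55.2% with no filter, Hsd17b6 to 297% with no filter and Car3 to 8.67% with array weights and 48.1% by the brightest probe.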

How the data were processed

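Liver RNA of 3 mice per diet was hybridized to 1-color Affymetrix Mouse 430 2.0 arrays. Per the labels and the study's methods, the authors normalized all 27 arrays of the 9 diets together by GCRMA. The values they deposited are intensities on the log2 scale and were taken without change. Probe names came from the platform annotation, in which 34958 probes carried 1 gene symbol, 932 several and 9211 none.

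Probes with a mean above log2(100) on at least 1 diet were kept (10582, of which 9523 with 1 symbol), and their means per gene gave 6478 genes. The model was fitted to all 27 arrays with limma 3.58.1 in R 4.3.3 (lmFit, eBayes, two-sided), and p was adjusted by the Benjamini-Hochberg method over all kept genes and 8 diets together at a threshold of 0.05. The contrast with lab chow used the same fit and was adjusted on its own. The number of mice limits the precision. The p-values rest on a spread between mice of the same diet, pooled over all 27 arrays and moderated across genes. The labels give no batch. The fit was tested on simulated data.

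Genes considered by name are the 15 largest rises and the 15 largest falls without overlap, and in each of 38 lists up to 4 called genes and the genes fixed as key members. With the genes given below that fall outside this rule, they number 390, of which 246 were called. The text names 233 of these, of which 198 were called, and this rule does not fix which. Members and lists were chosen with earlier results of these data known. Grb14, Sesn3, Ppp1r3b, Ppp1r3c, Ldha, Gpd1, Npc1, Kynu, Haao, Psmd11, Clec4f, Mpeg1, Stab1, Col3a1 and Alas2 fall outside this rule and were chosen after their values were seen. Alternatives were other filters, adjustments, priors, array weights, scalings and probe rules, the 6 arrays alone, a replicate block, each array left out, and the Dunnett's test of the methods. Promoter windows came from RefSeq (GRCm38.p6) for 313 of the 390 genes considered by name, and sequences on chromosome 18 are not shown. Tables were handled in Python 3.11.15 with pandas 2.3.3.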

Additional observations from a re-analysis of the deposited data

How the results depend on the processing

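Counts of called genes kept within 1.5 times of 872 higher and 981 lower under every alternative tried. They were lowest without AIN-93 replicate 3, at 666 and 704, and with any 1 array left out ranged over 666 to 773 higher and 704 to 942 lower. They were highest with array weights, at 1203 and 1449, where diet restriction replicate 1 had the lowest weight (0.362) and AIN-93 replicate 3 the highest (2.83). Adjustment within the comparison gave 1133 and 1286, and the Dunnett's test of the methods 965 and 1084, or 713 and 777 after Benjamini-Hochberg adjustment. Higher genes made up 45.0% to 49.1% of those called, and the median log2 difference of all kept genes was -0.03 before and -0.02 after centring or a further quantile normalization.

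The replicate block gave 874 higher and 987 lower genes. Deviations of same-numbered arrays correlated at -0.025, -0.05 and -0.075, and those of differently numbered arrays at -0.146 to 0.239. With 3 arrays per diet these values cannot settle whether mice were paired, and pairing in another order was not tested.

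Of 198 called genes named, 153 kept the call whichever array was left out and 45 did not. Without a filter on low signal 27 lost it, with the 6 arrays alone 6, with the brightest probe of a gene 4 and with array weights or the replicate block 0. Of list counts of 3 or more, 8 were over 1.5 times higher with array weights, complement among them at 22 lower genes and sterol synthesis and uptake at 15, 10 were over 1.5 times lower with no filter, and 13 without AIN-93 replicate 3. Others moved as much were 5 with adjustment within the comparison, 2 with the 6 arrays alone and 1 by the brightest probe. Among genes not called, the log2 difference changed sign for Igf1, to -0.08 with array weights and within -0.23 to 0.195 with 1 array left out, and for Hp, within -0.027 to 0.132 with 1 array left out. The cause was not tested. Signals near the lowest value limit what can be said of silent genes.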

Other observations

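Some of the largest differences belonged to genes outside the lists above. Slc16a5, a monocarboxylate transporter relative, had log2 intensities of 8.39, 6.74 and 7.35 under diet restriction, 2.62, 2.64 and 2.60 on lab chow and 2.57, 2.50 and 2.57 on AIN-93, and was higher by at least 1.80-fold (adjusted p = 2.4e-07) against AIN-93. All restricted livers lay above all others.

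Tff3, a trefoil peptide of mucous epithelia, read 2.29, 4.60 and 2.65 under diet restriction, 4.37, 5.63 and 4.67 on lab chow and 6.94, 6.78 and 9.04 on AIN-93, and was lower by at least 1.92-fold (adjusted p = 0.0022), a bound that was 1.16-fold without AIN-93 replicate 3. Adgrv1, a large adhesion receptor, read 2.71, 3.38 and 3.14 under diet restriction, 3.27, 3.29 and 3.62 on lab chow and 7.28, 7.45 and 6.70 on AIN-93, and was lower by at least 1.41-fold (adjusted p = 2.7e-08). Adgrv1 was low on lab chow as well, and there it was also called against AIN-93 (adjusted p = 9.0e-08). The monooxygenase relative Moxd1 read 4.07, 2.42 and 3.37 under diet restriction, 3.47, 6.78 and 4.05 on lab chow and 9.54, 7.04 and 9.83 on AIN-93, and was lower by at least 4.46-fold (adjusted p = 0.024), with a bound of 8.23-fold without AIN-93 replicate 2. Its call was lost without diet restriction replicate 2 or 3 or AIN-93 replicate 1 or 3 or with no filter. The pseudogene Serpina4-ps1 and the predicted gene Gm2788 were lower by at least 7.97-fold (adjusted p = 1.8e-04) and lower by at least 2.14-fold (adjusted p = 2.5e-06).

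Of 601 detected probes with no symbol 102 were higher and 74 lower under diet restriction (29.3% called), of 370 with several symbols 47 and 46 (25.1%), and of 8967 with 1 symbol 1253 and 1348 (29.0%).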
